A study of Mus musculus with 6 samples.

Results

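The genes described here are 38 genes of the tricarboxylic acid (TCA) cycle and of mitochondrial fatty acid oxidation, chosen by name from a table of raw fragment counts for 51499 assembled loci. Every symbol was found, 37 on a locus that bears no other name and 1, Etfb, on a locus that the assembly had joined with Gm45233 and Vsig10l. Some of these loci are longer than the annotated gene, as given below. All 38 were among the 13867 loci with enough counts to be tested. The study compared wild-type (WT) and Yme1l-/- mouse embryonic fibroblasts (MEFs), with 3 poly(A)-selected RNA-seq libraries of each genotype. The product of Yme1l is a protease (YME1L) of the inner mitochondrial membrane that uses ATP. WT and Yme1l-/- cells are clones of Yme1l-floxed fibroblasts, immortal through SV40 large T antigen, and differ in whether Cre had removed the loxP-flanked part of Yme1l. The labels do not say that the libraries of a genotype came from different clones, so differences between clones and effects of the deletion cannot be told apart, and p-values measure only the spread between these libraries.

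The TCA cycle oxidizes the acetyl group of acetyl-CoA to carbon dioxide and passes electrons to the respiratory chain as NADH and reduced flavin. Pyruvate enters it through the pyruvate dehydrogenase complex or through pyruvate carboxylase, and glutamate enters it as 2-oxoglutarate. Fatty acids enter mitochondria as carnitine esters and are shortened by repeated rounds of dehydrogenation, hydration, a further dehydrogenation and thiolysis, and the electrons of the first step reach ubiquinone through the electron transfer flavoprotein. Both pathways run in the mitochondrial matrix of most cell types, fibroblasts included.

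Total counts ranged from 33180867 to 49351107 fragments per library. The targeted gene Yme1l1 stood at 20.75% of its WT level in Yme1l-/- libraries (edgeR adjusted p = 2.43e-11), and its libraries lay between 182.8 and 192.2 CPM (counts scaled to library size) in WT and between 37.9 and 40.6 CPM in Yme1l-/- cells. Of 14 fibroblast markers, 12 passed the filter, of which 2 rose and 9 fell, with summed levels of 12770 to 13320 CPM in WT and 8795 to 9434 CPM in Yme1l-/- libraries, and Thy1 and Lum were at or near 0 counts. With chromosome medians removed 1 rose and 8 fell. Of the 9, Col3a1 and Dcn were by far the highest in WT 2 and were not called with the replicate block or without any 1 of the Yme1l-/- libraries. WT 2 also lay farther from WT 1 and WT 3 over all loci (chi-square per degree of freedom of 32.7 and 35.2) than these did from each other (12), and without it 18 of the 38 genes described here were called higher and 10 lower, as with all libraries. Epithelial markers summed to between 141.2 and 158.9 CPM in WT and between 2.61 and 3.09 CPM in Yme1l-/- libraries, mostly from Krt18 and Krt19, while Cdh1, Krt8 and Cldn4 were at or near 0 in all 6 libraries. Summed levels of the leukocyte, endothelial, muscle and neural, and adipocyte markers that passed the filter stayed at or under 4.93 CPM in every library. The others had at most 29 counts in any library, reached by Itgam, and Adgre1, Emcn, Myog and Lep had 0 counts throughout. Tubb3, also planned as a neural marker, has no value here. The part of these differences in the results below was not tested, and in bulk samples fewer cells of a type and less RNA per cell cannot be told apart.

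Fatty acid oxidation genes were more often higher than lower in Yme1l-/- cells, while as many genes of the TCA cycle and its entry points were higher as lower, in shares near those of all loci (33.6% higher and 34.1% lower). Of the 17 genes of fatty acid oxidation, 10 rose, 2 fell and 5 were not called, with a median log2 fold change of 0.28. Of the 21 genes of the TCA cycle, pyruvate entry and glutamate entry, counted with Idh2 and with Idh1 and Mdh1 of the cytosol, 8 rose, 8 fell and 5 were not called, with a median of -0.042. With the median change of each gene's chromosome removed, 9 of these 21 were called higher and 4 lower, and 11 and 2 of the 17. The difference between these groups of genes was not tested. A call is an adjusted p under 0.05 in the quasi-likelihood test of edgeR, adjusted after Benjamini and Hochberg over all 13867 loci, and fold changes are Yme1l-/- over WT throughout.

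Calls were frequent across the transcriptome. Over the 38 genes together 28 were called (73.7%), against 67.7% of all loci tested. In single directions, 18 of the 38 rose (47.4%) against 33.6% of all loci, and 10 fell (26.3%) against 34.1%. The libraries of the genotypes did not overlap for 29 of the 38 genes (76.3%) against 71.9% of all loci. The median log2 fold change of the 38 genes was 0.071, and that of all loci was -0.0041. Among 8188 loci of like level, between 14.3 and 560 CPM, 34.7% rose and 39.7% fell, with a median of -0.039. Most changes were small: 10 genes rose with a log2 fold change of at least 0.5 (26.3%, against 19.7% of all loci) and 1 fell by as much (2.63%, against 17.6%). Eci1 alone changed by at least 2-fold. The share of all counted fragments that fell on the 38 genes was 0.391 to 0.405% in WT and 0.446 to 0.451% in Yme1l-/- libraries.

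**Figure D1:**
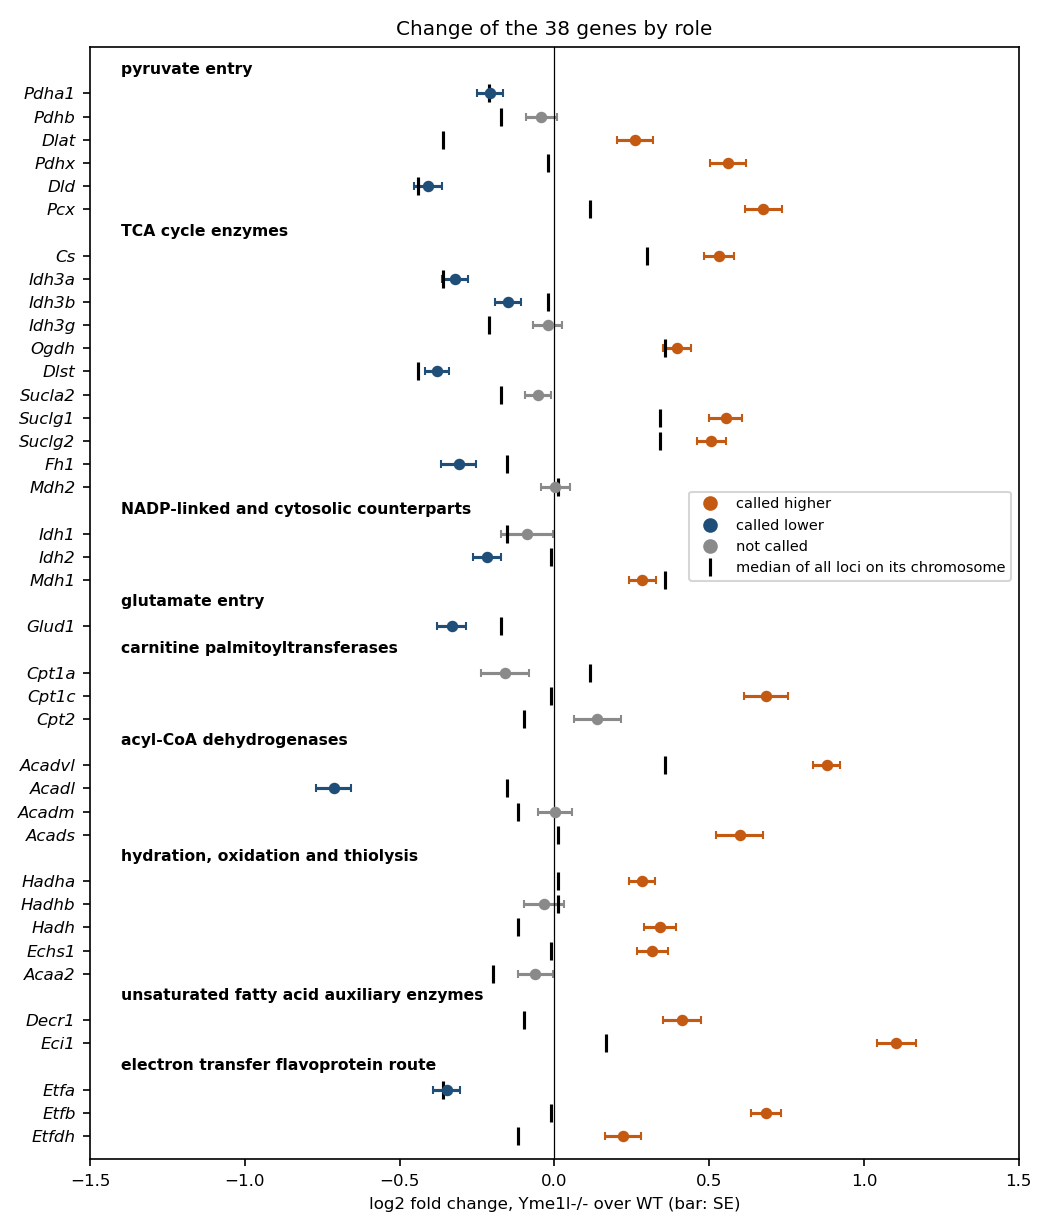
Log2 fold change (x axis, Yme1l-/- over WT, 3 libraries each) of the 38 genes by role, with bars for the standard error, colours for the edgeR call and a black tick for the median of all loci on the gene's chromosome. Eci1 at 1.10 and Acadl at -0.71 mark the ends, and several genes called lower, such as Dld and Etfa, sit on the tick of their chromosome.

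Several of these changes lay close to the median change of the chromosome that carries the gene. Chromosome medians ranged from -0.44 on chromosome 12 to 0.59 on chromosome 15, and those of chromosomes 9 (-0.36), 6 (0.34) and 11 (0.36) bear on several of the 38 genes. Their part in the changes of single genes was not tested. With each chromosome's median removed, 20 of the 38 genes were called higher (52.6%, against 31.1% of all loci) and 6 lower (15.8%, against 31.7%), and the median was 0.13. The call was lost for 7 genes: Pdha1, Dld, Idh3a, Dlst and Etfa, which had been lower, and Ogdh and Mdh1, which had been higher. A call was gained for 5 genes, Pdhb, Idh3g, Sucla2 and Cpt2 as higher and Cpt1a as lower. Values with the median removed are given below for each called gene whose call changed or whose value moved by over 1.5 times, and for genes that gained a call.

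**Figure D2:**
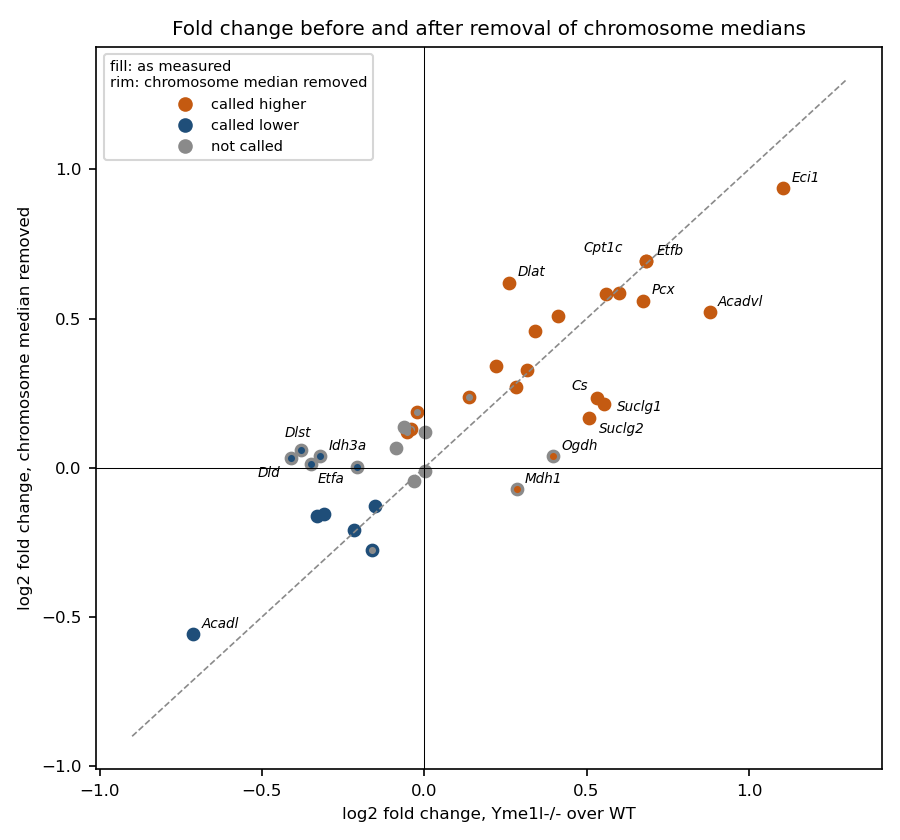
Log2 fold change of the 38 genes as measured (x axis) and with the median of the gene's chromosome removed (y axis); fill and rim give the call before and after, and the dashed line marks equal values. Pdha1, Dld, Dlst, Idh3a, Etfa, Ogdh and Mdh1, which lost their call, lie between -0.072 and 0.061 on the y axis, and Eci1, Acadvl and Acadl keep most of their change.

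Upstream sequence is shown for the genes at the ends of the range and for 2 further cases, a pair of neighbours whose counts are compared and the 1 gene with a composite motif. RefSeq promoter windows of build GRCm38.p6 were matched for 35 of the 38 genes, and only bases before the start site and outside annotated exons are printed. Eci1 rose most, Acadvl was next, and Acadl fell most, and their upstream stretches hold none of the motifs searched. For Eci1 the stretch is chr17:24426433-24426640 on the plus strand, for Acadvl chr11:70015429-70015678 on the minus strand and for Acadl chr1:66863310-66863559 on the minus strand. Hadhb and Hadha are transcribed away from each other, and the 85 bases between the genes as annotated by GENCODE, chr5:30155163-30155247, are shown on the strand of Hadhb. Echs1 is the only one of the matched genes with the composite motif of ATF4 and C/EBP factors, shown in capitals within chr7:140116477-140116671 on the minus strand.
Eci1: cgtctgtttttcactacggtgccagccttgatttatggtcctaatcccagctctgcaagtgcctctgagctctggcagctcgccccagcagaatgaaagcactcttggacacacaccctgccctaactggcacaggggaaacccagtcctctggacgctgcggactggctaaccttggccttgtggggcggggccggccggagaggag
Acadvl: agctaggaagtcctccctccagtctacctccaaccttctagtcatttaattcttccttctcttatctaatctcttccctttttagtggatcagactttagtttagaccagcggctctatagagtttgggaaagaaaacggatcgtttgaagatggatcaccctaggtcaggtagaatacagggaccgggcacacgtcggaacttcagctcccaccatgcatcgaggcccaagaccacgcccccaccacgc
Acadl: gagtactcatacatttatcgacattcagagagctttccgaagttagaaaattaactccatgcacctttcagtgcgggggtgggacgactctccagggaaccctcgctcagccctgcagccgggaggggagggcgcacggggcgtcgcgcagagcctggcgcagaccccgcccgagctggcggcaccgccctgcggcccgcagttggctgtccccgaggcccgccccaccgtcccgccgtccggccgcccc
Hadha and Hadhb: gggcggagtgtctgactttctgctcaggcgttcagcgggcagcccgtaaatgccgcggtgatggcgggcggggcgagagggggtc
Echs1: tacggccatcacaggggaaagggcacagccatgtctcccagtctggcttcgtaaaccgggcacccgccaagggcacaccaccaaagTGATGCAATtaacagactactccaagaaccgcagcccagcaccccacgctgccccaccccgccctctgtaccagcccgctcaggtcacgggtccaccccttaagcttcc

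The search covered 5 motifs on both strands of the 250 bases before each start. The 35 matched genes have 42 windows, some of them overlapping windows of 1 gene, so shares are given per gene. The NRF1 motif GCGCATGCG occurred before 8.57% of the 35 genes (Ogdh, Acadm and Etfdh) and before 1.64% of 27025 genes of the genome. For Ogdh it lies in the windows of only some of the annotated starts. TGATGCAAT, the composite motif found before Echs1, was before 0.192% of all genes. The ETS motif CCGGAAG was before 8.57% of the 35 genes (Idh3g, Glud1 and Cpt2) and 7.83% of all, and the E-box CACGTG before 5.71% (Pcx and Ogdh) and 6.86%. TCAAGGTCA, the motif of estrogen-related receptors, was before none of the 35 and 0.422% of all. A match is a description of these windows and not a site in use. Of the genes with an NRF1 motif, Ogdh (0.40) and Etfdh (0.22) were called higher and Acadm (0.001) was not called, in log2 fold change.

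At the entry of pyruvate, the genes of the pyruvate dehydrogenase complex moved in both directions. Pdhx encodes the component that binds the dihydrolipoamide dehydrogenase subunit to the core of the complex (chr2:103021075-103073513). It was at 31.8, 29.0 and 29.4 CPM in the WT libraries and at 46.8, 44.2 and 42.2 CPM in the Yme1l-/- libraries. Every Yme1l-/- library lay above every WT library, with 0.56 ± 0.059 (SE) on the log2 scale and an edgeR adjusted p of 7.12e-06. Dlat, the dihydrolipoamide acetyltransferase that forms that core, was higher at 0.26 ± 0.058 (SE), and with the median of chromosome 9 removed at 0.62. Dld, the dehydrogenase shared by the pyruvate and 2-oxoglutarate complexes, was at 148, 149 and 147 CPM in WT and 115, 112 and 107 CPM in Yme1l-/- libraries. The groups were apart, and its change of -0.41 ± 0.045 (SE) was called lower but not with the median of chromosome 12 (-0.44) removed, at 0.032. Of the subunits of the decarboxylating component, Pdha1 fell (-0.21 ± 0.043 SE, the value of the X chromosome's median, -0.21), while Pdhb stood at -0.042 ± 0.05 (SE) and was not called, or was called higher at 0.13 with the median removed.

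Pyruvate carboxylase turns pyruvate into oxaloacetate and so refills the cycle. Its gene Pcx (chr19:4510472-4621752) was at 27.5, 27.9 and 30.4 CPM in WT and at 44.2, 44.7 and 48.0 CPM in Yme1l-/- libraries. The groups were apart by more than the range of either, with a log2 fold change of 0.68 ± 0.059 (SE, edgeR adjusted p = 1.46e-06).

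The regulators of pyruvate dehydrogenase, which are not among the 38 genes, held the largest increase of any gene in the wider lists. Pdk4, a kinase that inactivates the complex, had 24, 55 and 28 counts in the WT libraries and 823, 1115 and 1167 counts in the Yme1l-/- libraries. Its level rose from 1.09 ± 0.517 to 22.8 ± 0.705 CPM (SD, n = 3), which is 4.39 ± 0.21 (SE) on the log2 scale (edgeR adjusted p = 8.92e-08). Pdp1, the phosphatase subunit that reverses this inactivation, fell from 20.6 ± 1.42 to 10.7 ± 0.51 CPM (-0.94 ± 0.077, SE). The other kinases did not move together, with 0.88 for Pdk2, -0.37 for Pdk1 and -0.18 for Pdk3, all of them called. Pdk2 was at 0.53 with the median of chromosome 11 removed and still called. Pdk3 was at 0.03 and not called with the X chromosome's median removed, and lost its call also under upper-quartile scaling, without WT 3 and without Yme1l-/- 2. Both genes of the mitochondrial pyruvate carrier rose, Mpc1 by 0.74 ± 0.14 and Mpc2 by 0.23 ± 0.075 (log2, SE). Mpc2 was not called without WT 2 or without WT 3, and with the median of chromosome 1 removed it was called at 0.39. Of the 9 genes in that list 4 rose and 3 fell, or 6 and 2 with chromosome medians removed. Pdk1, Pdk2, Pdk3, Mpc1 and Mpc2 were named after their values were seen.

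Within the cycle itself, 4 of the 11 genes rose, 4 fell and 3 were not called, shares near those of all loci (33.6% and 34.1%), and with chromosome medians removed 5 were called higher and 2 lower. Cs, the citrate synthase gene that opens the cycle (chr10:128337734-128362479), was at 464, 437 and 472 CPM in WT libraries and at 648, 672 and 665 CPM in Yme1l-/- libraries. The lowest Yme1l-/- library was far above the highest WT library, and the rise was 0.53 ± 0.049 (SE, edgeR adjusted p = 2.1e-06). Chromosome 10 had a median of 0.30, and with it removed Cs was at 0.23 and still called.

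The 3 subunit genes of NAD-dependent isocitrate dehydrogenase did not rise in the measured values. Idh3a, the catalytic subunit, fell to 80.0% of its WT level (-0.32 ± 0.042, SE), on a chromosome with a median of -0.36, and was not called at 0.039 with it removed. Idh3b fell less, at -0.15 ± 0.042 (SE), and this was the only call among the 38 that another scaling removed (upper-quartile scaling, with an edgeR adjusted p of 0.0729, the highest of its alternatives, which began at 0.00373). Idh3g stood at -0.021 ± 0.047 (SE) and was not called as measured, and with the median of the X chromosome removed it was called higher at 0.19.

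The 2-oxoglutarate dehydrogenase complex, which yields succinyl-CoA, showed its subunits on opposite sides. Ogdh, the decarboxylating subunit, was at 189, 183 and 197 CPM in WT and 239, 257 and 253 CPM in Yme1l-/- libraries. Dlst, the succinyltransferase core, was at 239, 233 and 229.6 CPM in WT and 176, 181 and 181 CPM in Yme1l-/- libraries. Neither gene's groups overlapped, and the log2 fold changes were 0.40 ± 0.046 for Ogdh and -0.38 ± 0.04 for Dlst (SE). Both values were near their chromosome's median, 0.36 on chromosome 11 and -0.44 on chromosome 12, and neither was called with that median removed, at 0.039 and 0.061.

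Succinyl-CoA synthetase pairs a common subunit, encoded by Suclg1, with a GTP-forming subunit from Suclg2 or an ATP-forming subunit from Sucla2. Suclg1 (chr6:73248382-73276911) was at 80.3, 75.5 and 72.8 CPM in WT and 117, 108 and 111 CPM in Yme1l-/- libraries. Suclg2 (chr6:95473009-95718800) was at 93.6, 96.2 and 98.3 CPM in WT and 143, 135 and 132 CPM in Yme1l-/- libraries. For both genes the groups were apart, with rises of 0.55 ± 0.053 (SE) and 0.51 ± 0.048 (SE) and edgeR adjusted p of 3.22e-06 and 2.6e-06. Both genes lie on chromosome 6, whose median was 0.34, and without it they were at 0.21 and 0.17 and still called. Sucla2 was at -0.053 ± 0.043 (SE) and not called as measured, although its libraries did not overlap, and with the median of chromosome 14 removed it was called higher at 0.12.

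Of the last steps, Fh1, the fumarase gene, fell at -0.31 ± 0.057 (SE, edgeR adjusted p = 0.000542), and at -0.16 with the median of chromosome 1 removed. Mdh2, the mitochondrial malate dehydrogenase, had 533, 508 and 510.1 CPM in WT and 538, 506 and 510.4 CPM in Yme1l-/- libraries. These overlapped, and its log2 fold change was 0.0025 ± 0.047 (SE). Mdh1, the cytosolic enzyme of the malate-aspartate shuttle, was higher at 0.28 ± 0.042 (SE), but chromosome 11 had a median of 0.36 and the value without it was -0.072, not called. Of the NADP-linked isocitrate dehydrogenases, the mitochondrial Idh2 fell at -0.22 ± 0.045 (SE), and the cytosolic Idh1 was at -0.088 ± 0.084 (SE) and not called, nor was it at 0.066 with its chromosome's median removed. Glud1, the glutamate dehydrogenase that feeds 2-oxoglutarate into the cycle, fell at -0.33 ± 0.047 (SE), and at -0.16 with the median of chromosome 14 removed, both called.

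Outside the 38 genes, Sdha, the flavoprotein subunit of succinate dehydrogenase, rose at 0.39 ± 0.039 (SE). Sdhd fell at -0.17, a call lost under upper-quartile scaling and without Yme1l-/- 2 or Yme1l-/- 3, while Sdhb and Sdhc were at -0.011 and -0.014, neither called. With chromosome medians removed Sdhc and Sdhd were called higher, at 0.14 and 0.19. The 4 Sdh genes were named after their values were seen. Among the 12 other TCA cycle genes, 5 rose and 2 fell, the largest increase being that of Dhtkd1, the 2-oxoadipate dehydrogenase subunit, at 1.76 ± 0.14 (SE), from 2.09 ± 0.263 to 7.09 ± 0.912 CPM (SD, n = 3). The largest decrease was that of Sdhaf4, a succinate dehydrogenase assembly factor, at -0.28 ± 0.10 (SE), which was not called under 8 of 13 alternatives and was at -0.12 with the median of chromosome 1 removed. The count of 2 lower genes was 1 without WT 1, without WT 2, with DESeq2 or without the filter, and 0 without Yme1l-/- 2, without Yme1l-/- 3, with upper-quartile scaling or with chromosome medians removed.

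On the side of fatty acids, the carnitine palmitoyltransferases differed among themselves. Cpt1c encodes a member of the carnitine palmitoyltransferase 1 family that is best known from neurons and has little enzymatic activity (chr7:44959372-44974851). It was at 21.0, 21.4 and 23.5 CPM in WT and 32.0, 36.6 and 37.1 CPM in Yme1l-/- libraries. The groups did not overlap, and the rise was 0.68 ± 0.072 (SE, edgeR adjusted p = 6.64e-06). Cpt1a, the main liver-type enzyme that commits fatty acids to import, was at 30.7, 37.3 and 36.0 CPM in WT and 31.1, 28.9 and 33.0 CPM in Yme1l-/- libraries. The groups overlapped through WT 1, and the log2 fold change of -0.16 ± 0.078 (SE) was not called (edgeR adjusted p = 0.0914). Without WT 1 it was called lower at -0.24 (edgeR adjusted p = 0.00991), and with the median of chromosome 19 removed at -0.28. Over all alternatives the edgeR adjusted p of Cpt1a ran from 0.00977 to 0.299. Cpt2, the inner-membrane enzyme that releases acyl-CoA in the matrix, was at 0.14 ± 0.075 (SE) and not called, and without WT 3 it was called higher at 0.20 (edgeR adjusted p = 0.0395, with a range of 0.0169 to 0.355 over the alternatives) and with the median of chromosome 4 removed at 0.24.

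The acyl-CoA dehydrogenases, which open each round of oxidation and differ in the chain length they prefer, held both a large rise and the largest fall. Acadvl, for very long chains (chr11:70000595-70015411), was at 60.7, 60.0 and 62.3 CPM in WT and 113, 111 and 113 CPM in Yme1l-/- libraries. Acadl, for long chains (chr1:66830839-66863277), was at 50.8, 51.9 and 52.2 CPM in WT and 29.0, 32.5 and 32.8 CPM in Yme1l-/- libraries. Each gene's groups were apart by much more than their spread, with 0.88 ± 0.043 (SE) for Acadvl and -0.71 ± 0.057 (SE) for Acadl and edgeR adjusted p of 1.32e-08 and 6.94e-07. With chromosome medians removed, Acadvl was at 0.52 and Acadl at -0.56, and both stayed called. The Acadvl locus spans 14.8 kb against 5.23 kb for the annotated gene. Whether fragments from outside the gene entered its count was not tested. Acads, for short chains (chr5:115110299-115119346), was at 32.3, 28.0 and 29.5 CPM in WT and 50.3, 43.9 and 42.0 CPM in Yme1l-/- libraries. All 3 Yme1l-/- libraries were above the WT libraries, with Yme1l-/- 1 the highest, and the rise was 0.60 ± 0.077 (SE, edgeR adjusted p = 3.32e-05). Acadm, for medium chains, overlapped between genotypes at 0.001 ± 0.055 (SE), and was at 0.12 with the median of chromosome 3 removed, not called either way.

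**Figure D3:**
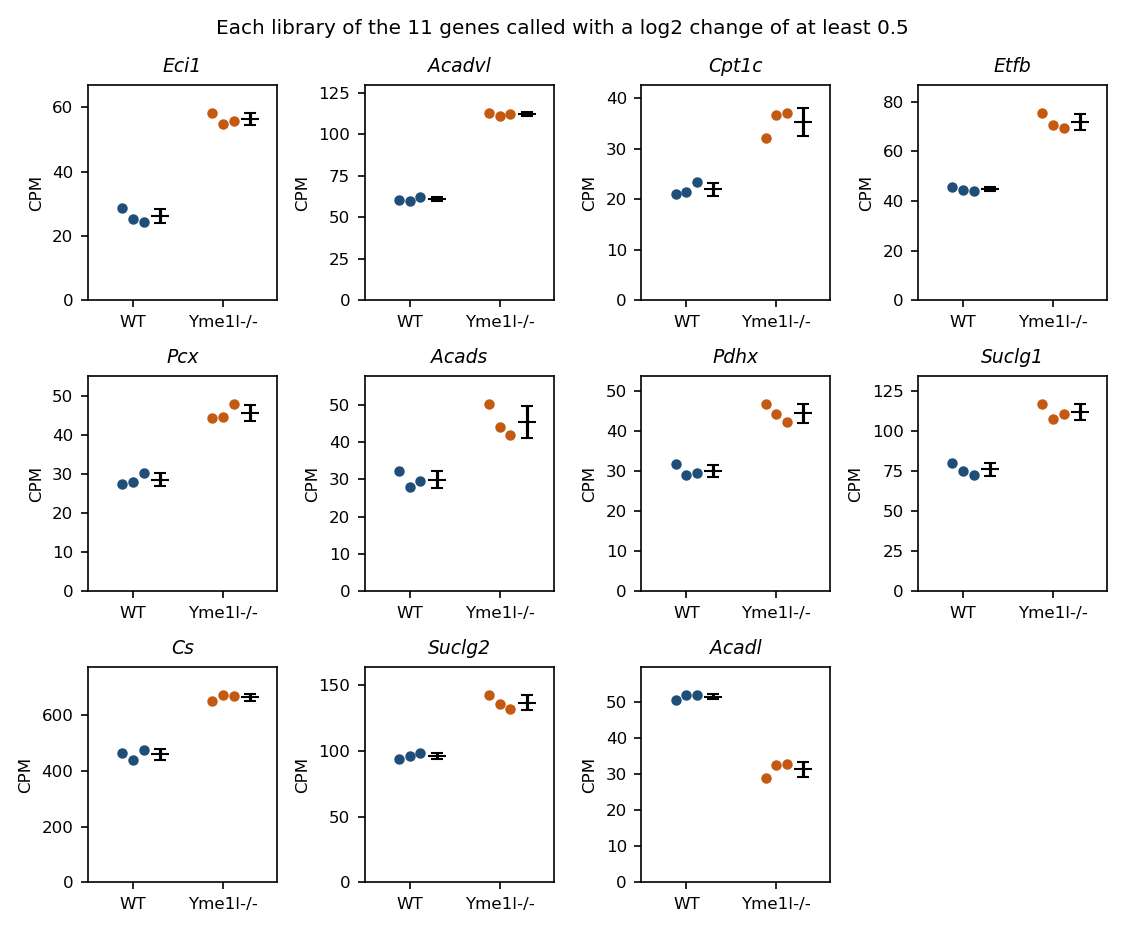
CPM (y axis, from 0) in each library of the 11 genes called with a log2 change of at least 0.5; points are libraries, and black bars show the mean and SD of the 3 libraries of a genotype. In each panel the points of the 2 genotypes are separate, from Eci1 with the largest rise to Acadl, the only one that fell.

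The later steps of a round are carried out by the trifunctional protein for long chains and by soluble enzymes for shorter ones. Hadha, the trifunctional subunit with hydratase and dehydrogenase activity, was at 143, 136 and 142 CPM in WT and 167, 174 and 170.0 CPM in Yme1l-/- libraries. Hadhb, the thiolase subunit of the same complex, was at 60.0, 57.1 and 61.8 CPM in WT and 59.5, 62.6 and 52.8 CPM in Yme1l-/- libraries. Hadha rose without overlap (0.28 ± 0.042 SE, edgeR adjusted p = 0.000112), while Hadhb overlapped at -0.033 ± 0.065 (SE) and was not called. These genes share the 85 bases printed above between their annotated ends. Of the soluble enzymes, Hadh, the short-chain hydroxyacyl-CoA dehydrogenase, rose at 0.34 ± 0.053 (SE) and Echs1, the short-chain enoyl-CoA hydratase, at 0.32 ± 0.051 (SE). Acaa2, the medium-chain thiolase, was at -0.061 ± 0.058 (SE), or at 0.14 with its chromosome's median removed, and not called in either case.

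The auxiliary enzymes that allow unsaturated fatty acids to enter the spiral both rose. Eci1, an enoyl-CoA isomerase that moves double bonds (chr17:24426683-24439316), was at 28.6, 25.4 and 24.5 CPM in WT and 58.4, 54.8 and 55.6 CPM in Yme1l-/- libraries. The groups were far apart, and the change of 1.10 ± 0.063 (SE), a 2.15-fold rise, had an edgeR adjusted p of 4.7e-08. Without the median of chromosome 17 it was 0.94. Decr1, the dienoyl-CoA reductase, rose at 0.41 ± 0.062 (SE, edgeR adjusted p = 0.000111).

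Electrons from the acyl-CoA dehydrogenases pass to the electron transfer flavoprotein, a dimer of the products of Etfa and Etfb, and from there through its oxidoreductase, the product of Etfdh, to ubiquinone. The locus of Etfb (chr7:43444083-43472019) was at 45.6, 44.6 and 44.0 CPM in WT and 75.6, 70.6 and 69.4 CPM in Yme1l-/- libraries. Etfa was at 87.9, 91.7 and 92.6 CPM in WT and 70.3, 72.9 and 70.6 CPM in Yme1l-/- libraries. The groups did not overlap for either, and the partners were called in opposite directions, 0.68 ± 0.05 (SE) and -0.35 ± 0.045 (SE), with edgeR adjusted p of 3.28e-07 and 3.31e-05. The value of Etfb belongs to the joined locus, whose counts cannot be divided among its genes, and that of Etfa was at 0.012 and not called with the median of chromosome 9 removed. Etfdh rose at 0.22 ± 0.058 (SE), and at 0.34 with the median of chromosome 3 removed.

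Ratios of counts within a library do not depend on how libraries are scaled, and 6 of them were tested by an exact two-sided permutation test over libraries, which with 3 against 3 cannot go below a p of 0.1. The ratio of Acadl to Acadvl was 0.838, 0.866 and 0.838 in WT and 0.257, 0.293 and 0.292 in Yme1l-/- libraries. Acadvl is counted here over its whole locus, which is longer than the annotated gene. That of Cpt1c to Cpt1a was 0.684, 0.576 and 0.652 in WT and 1.03, 1.26 and 1.12 in Yme1l-/- libraries. The mean difference was -1.60 for Acadl to Acadvl and 0.84 for Cpt1c to Cpt1a on the log2 scale, and the medians of the chromosomes involved alone differed by -0.51 and -0.12. The ratio of Suclg2 to Sucla2 differed by 0.56 and that of Mdh1 to Mdh2 by 0.28, where the medians differed by 0.51 and 0.34. The ratio of Idh3b to Idh3a differed by 0.17, against 0.34 for the medians. These 5 ratios did not overlap between genotypes, and each had the smallest exact p, 0.1, which was 0.12 after Benjamini-Hochberg adjustment over the 6 ratios, so none passed the threshold. The ratio of Idh1 to Idh2 overlapped and differed by 0.13 (exact permutation p = 0.3), against -0.14 for the medians.

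A further 5 ratios were chosen after their values were seen and are given as a description. The count ratio of the Etfb locus to Etfa was 0.519, 0.486 and 0.475 in WT and 1.08, 0.969 and 0.983 in Yme1l-/- libraries. That of Pdhx to Dld, which meet in 1 complex, was 0.215, 0.195 and 0.2 in WT and 0.406, 0.393 and 0.396 in Yme1l-/- libraries. These moved 2.04-fold and 1.96-fold, or by 1.03 and 0.97 on the log2 scale, more than the chromosome medians, which differed by 0.35 and 0.42. The ratio of Ogdh to Dlst moved by 0.78 on that scale, against 0.80 for the medians, and that of Suclg1 to Sucla2 by 0.61, against 0.51. The neighbours Hadha and Hadhb share a chromosome, and their ratio was 2.38, 2.38 and 2.29 in WT and 2.81, 2.78 and 3.22 in Yme1l-/- libraries.

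**Figure D4:**
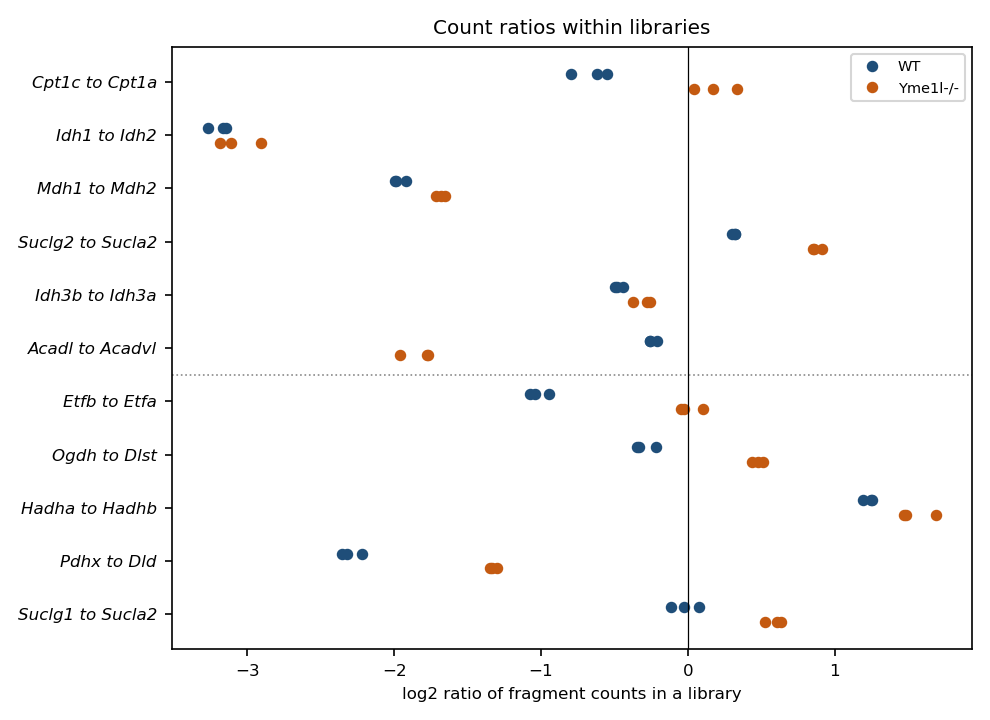
Log2 ratio of fragment counts (x axis) of pairs of genes within each library, for the 6 tested ratios above the dotted line and the 5 chosen later below it; each point is a library. Except for Idh1 to Idh2, the points of the genotypes are separate, by the most for Acadl to Acadvl.

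Levels of different genes can be compared only per transcript length, for which the authors' FPKM (fragments per kilobase, scaled by library) gives 1 value per genotype without a spread. Mdh2 had the highest FPKM of the 38 genes in both genotypes, 407 in WT and 408 in Yme1l-/- cells, followed by Cs at 161 and 233. The median FPKM in WT was 66.5 over the 21 genes counted with the cycle and its entries and 25.6 over the 17 fatty acid oxidation genes. The lowest in WT was Decr1 at 7.15, with Pcx, Idh1 and the 3 carnitine palmitoyltransferases all under 10 FPKM. By FPKM rank from the highest, the Etfb locus went from place 13 in WT to 4 in Yme1l-/- cells, Eci1 from 26 to 15 and Suclg1 from 15 to 7, while Dld went from 12 to 20 and Acadl from 24 to 32. In WT the FPKM of Acadl (30.8) was close to that of the Acadvl locus (31.8), and in Yme1l-/- cells they were 17.8 and 58.2.

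**Figure D5:**
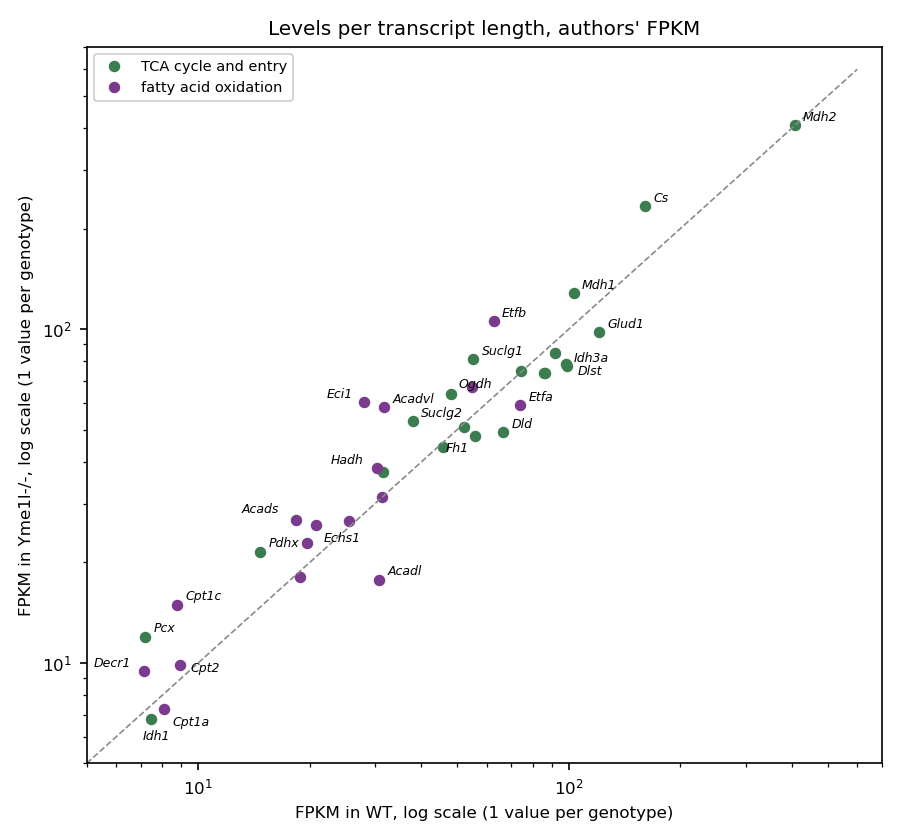
The authors' FPKM of the 38 genes in WT (x axis) and Yme1l-/- cells (y axis), both on log scales, with 1 value per genotype, a dashed line of equal levels and colours for the side of metabolism. Mdh2 lies on the line at about 407 FPKM, the Etfb locus and Eci1 lie above it, and Acadl lies below it.

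Lists of genes around these pathways held 117 symbols. Of these 109 were tested, of which 52 rose, 21 fell and 36 were not called, with a median log2 fold change of 0.22, and with chromosome medians removed 52 rose and 14 fell. As shares, 47.7% rose and 19.3% fell, against 33.6% and 34.1% of all loci, or 47.7% and 12.8% against 31.1% and 31.7% with the medians removed, and the counts of each list are to be read beside these shares of all loci. Among genes of fatty acid activation and the carnitine shuttle, 8 of 17 rose and 4 fell, and the latter count was 2 without Yme1l-/- 2 or with upper-quartile scaling and 1 with chromosome medians removed. The largest increase there was that of Fabp5, a fatty acid binding protein, from 67.7 ± 2.39 to 212 ± 21.8 CPM (SD, n = 3; 1.65 ± 0.069, SE). Slc22a5, the carnitine transporter of the plasma membrane, rose at 1.03 ± 0.092 (SE), and at 0.67 with the median of chromosome 11 removed. Slc27a1, a fatty acid transport protein, fell most in the list at -0.63 ± 0.15 (SE), and was not called with its chromosome's median removed, at -0.32.

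Among the other genes of mitochondrial beta-oxidation, 9 of 16 rose and 3 fell, or 11 and 0 with chromosome medians removed. Echdc3, an enoyl-CoA hydratase domain gene, rose at 1.36 ± 0.13 (SE) and Acot2, a mitochondrial acyl-CoA thioesterase, at 1.03 ± 0.12 (SE), both from about 3 CPM in WT (2.79 ± 0.387 and 3.04 ± 0.33). Acat1, the acetoacetyl-CoA thiolase, fell most at -0.30 ± 0.047 (SE) and was not called with the median of chromosome 9 removed, at 0.06. In peroxisomal beta-oxidation 6 of 13 genes rose and 2 fell (1 with chromosome medians removed), with Amacr, the racemase for branched acyl-CoA, at 1.02 ± 0.082 (SE) and Hsd17b4, the peroxisomal multifunctional enzyme, at -0.46 ± 0.05 (SE). Both stayed called with chromosome medians removed, at 0.43 for Amacr and -0.27 for Hsd17b4.

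Among genes that refill the cycle or export its carbon, 10 of 18 rose and 4 fell, the latter being 2 without WT 1, without Yme1l-/- 3, with upper-quartile scaling or with chromosome medians removed. Pck2, the mitochondrial phosphoenolpyruvate carboxykinase, went from 44.0, 41.8 and 45.1 CPM in WT to 111, 113 and 108 CPM in Yme1l-/- libraries. This was the largest increase in that list, at 1.34 ± 0.048 (SE, edgeR adjusted p = 1.13e-09). Gpt, an alanine aminotransferase, rose at 1.23 ± 0.12 (SE), and Slc25a11, the oxoglutarate carrier, at 1.00 ± 0.048 (SE). With chromosome medians removed these were at 0.63 and 0.64 and still called. Of the 3 genes that attach lipoate to the dehydrogenase complexes 1 was called, Lias at 0.35 ± 0.045 (SE), and this count was 2 without WT 1, with upper-quartile scaling or with the replicate block. Lipt1 was at -0.21 ± 0.11 (SE), or -0.054 with the median of chromosome 1 removed, and not called.

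Of 17 transcription factors and cofactors of oxidative metabolism, 9 were not called, 6 rose and 2 fell. The count that rose was 4 to 5 with 1 library left out. With chromosome medians removed 3 rose and 6 fell. Their median was 0.047 on the log2 scale whether Esrrg was taken as fitted or at its bound, and the count of 2 that fell was 1 without WT 2, with upper-quartile scaling or with at least 10 counts required in every library. Esrrg, which encodes estrogen-related receptor gamma, had 61, 99 and 75 counts in the WT libraries and 0 in each Yme1l-/- library. Against a floor of 3 counts per library it was at least 27.8-fold lower in Yme1l-/- cells. Ppara had 7, 2 and 9 counts in WT and 25, 35 and 36 in Yme1l-/- libraries, the largest increase of the list, at a level under 1 CPM in all libraries. In the short list for ketone bodies and propionate, Bdh2 had 3, 9 and 0 counts in WT and 14, 24 and 30 in Yme1l-/- libraries, and Bdh1 had 23, 23 and 25 and 11, 10 and 14. Bdh1 was called lower at -1.47 ± 0.30 (SE). Esrrg, Ppara and Bdh2 had under 10 counts in every library of the genotype where they were low and passed the filter only through the other genotype, so their counts are given as a description without a test, although the counts of called genes in their lists include them.

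The spread behind these values was small. The coefficient of variation of the 38 genes had a median of 3.18% over WT and 4.07% over Yme1l-/- libraries and did not exceed 10.1%, and counts of single genes ran from 461 to 33903 fragments. Assembled loci can reach beyond the annotated gene, and 6 of the 38 spanned at least 2 times its length: Mdh1 (342 against 15.6 kb), Pdha1, Echs1, Acadvl, Fh1 and Etfb. Whether fragments from outside the gene entered their counts was not tested.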

How the data were processed

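Libraries were made by the authors with the TruSeq stranded mRNA kit and sequenced as read pairs. Per the submitters' processing notes, the authors mapped them to GRCm38 (mm10) with HISAT2 2.0.4, assembled transcripts with StringTie 1.3.3 and compared genotypes with Cuffdiff 2.2.1. The deposited count table holds raw fragment counts per assembled locus, without normalization. A second deposited table holds FPKM, 1 value per genotype, with the authors' log2 fold change, p-value and q-value, which were not used. How fragments with several matches were counted is not given in the sources used here, so genes with pseudogene copies are uncertain. Columns of samples that matched no label: 0.

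Counts were tested with edgeR 4.0.16 in R 4.3.3 (filterByExpr with a minimum count of 10, TMM scaling, robust quasi-likelihood, no covariate), and standard errors are the log2 fold change divided by the square root of F. Alternatives were RLE and upper-quartile scaling, DESeq2 1.42.0, other filters, a replicate block, each library left out and chromosome medians removed as offsets. For ratios, 0.5 was added to counts, or 1 as an alternative. The procedure was tested on simulated counts in which few loci changed and no chromosome was shifted as a whole. That test does not cover conditions like those of these data. Deviations of same-numbered libraries correlated at 0.2, -0.16 and 0.048. With so few libraries these values cannot decide whether same-numbered libraries were handled together. The main test treats libraries as unpaired, with the replicate block as an alternative.

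The 38 genes and all lists were chosen with earlier results of these data known. Genes called with an absolute log2 fold change of at least 0.5 are given by library. From the other lists the text names genes called with at least 1 and at least 5 CPM in the higher genotype, each list's extremes, and genes said to be chosen after their values were seen. Some genes that this rule picks are not reported here. Coordinates of loci are the authors' (mm10, counted from 1), and upstream sequences are RefSeq's.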

Additional observations from a re-analysis of the deposited data

How the results depend on the processing

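Of the 28 called genes, 27 kept direction and call under 12 alternatives other than the removal of chromosome medians, and 20 under all 13. Idh3b lost its call under upper-quartile scaling, where Cpt2 was called higher (0.20), and Cpt1a was called lower without the filter (-0.17). The count of members called higher ranged from 17 (merged locus left out) to 20, and from 18 to 19 with 1 library left out. The count of members called lower was 6 with chromosome medians removed and 9 to 11 otherwise, 10 to 11 with 1 library left out. The replicate block changed no call among the 38 genes (18 higher, 10 lower), and 4842 and 4952 of all loci were called higher and lower with it. The split of all calls under upper-quartile scaling was 5168 higher and 4204 lower, and that scaling put the median of all loci at 0.055. The sign of the log2 fold change turned in the following cases, and the cause was not tested. With chromosome medians removed, it was 0.00164 for Pdha1, 0.13 for Pdhb, 0.0317 for Dld, 0.0387 for Idh3a, 0.19 for Idh3g, 0.0609 for Dlst, 0.12 for Sucla2, -0.00949 for Mdh2, 0.0661 for Idh1, -0.0725 for Mdh1, 0.14 for Acaa2, 0.0115 for Etfa, 0.0873 for Sdhb, 0.14 for Sdhc, 0.19 for Sdhd, 0.0299 for Pdk3 and 0.0596 for Acat1. With upper-quartile scaling, it was 0.0172 for Pdhb, 0.0381 for Idh3g, 0.00608 for Sucla2, 0.0263 for Hadhb, 0.0488 for Sdhb and 0.0454 for Sdhc. With RLE scaling, it was -0.00193 for Mdh2 and -0.00342 for Acadm. With DESeq2, it was -0.00207 for Mdh2 and -0.00358 for Acadm. With no filter beyond a total of 1 count, it was -0.00313 for Mdh2 and -0.0047 for Acadm. With 1 library left out, the range was -0.024 to 0.023 for Mdh2, -0.029 to 0.042 for Acadm, -0.087 to 0.037 for Hadhb, -0.061 to 0.021 for Sdhb and -0.048 to 0.016 for Sdhc. Among these only Pdha1, Dld, Idh3a, Dlst, Mdh1, Etfa, Sdhd, Pdk3 and Acat1 had been called. The tested ratios kept their direction with 1 count added, and with 1 library left out the difference ranged from 0.76 to 0.91 for Cpt1c to Cpt1a, 0.046 to 0.18 for Idh1 to Idh2, 0.27 to 0.31 for Mdh1 to Mdh2, 0.54 to 0.57 for Suclg2 to Sucla2, 0.15 to 0.20 for Idh3b to Idh3a and -1.63 to -1.53 for Acadl to Acadvl. The design holds 3 libraries per genotype of cells grown from clones, so it cannot separate genotype from clone.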
